A study of Arabidopsis thaliana with 64 samples.

Results

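Hybrid F1 seedlings between C24 and Landsberg erecta (Ler), both accessions of Arabidopsis thaliana, were compared with seedlings of the C24 parent at 15 days after sowing. The members were the 8 libraries that the labels assign to these groups, out of 64 in the series and 36 at 15 days. They comprised C24xLer pools A and B and LerxC24 pools A and B (4 F1 libraries, both directions of the cross), and C24 pools A to D (4 libraries). C24xLer was grown with C24 pools A and B in batch 1, and LerxC24 with C24 pools C and D in batch 2. The batches differed in the light tubes used. All plants were untreated wild types, and each library held RNA of the aerial tissue of 5 pooled plants. The growth medium held 1% sucrose, days were 16 h long at 22 °C, and nights 8 h at 18 °C. The comparison asks how the hybrid differs from one of its parents, and it was made within batches, with batch as a term of the model. Cross and batch cannot be told apart, and the p-values measure the spread between pools, not between plants. In the fit of both batches that spread also holds any difference between the crosses in their distance from C24.

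A first-generation hybrid carries 1 genome from each parent, so a transcript that only 1 parental allele makes is present at a reduced dose, and trans-acting factors from both parents meet in every cell. C24 and Ler are inbred accessions whose hybrids are known for vigorous vegetative growth. Seedlings of this age use several nutrient and defence programs that respond to growth and supply. Among them are uptake of iron and sulfate, synthesis of glucosinolates (sulfur-rich defence compounds of the Brassicaceae), and the sugar-starvation and senescence programs of leaves.

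The 8 libraries held 44419628 to 84020066 counted reads, with 30784 to 31249 genes detected. Organelle genes took 0.0340 to 0.0931% of the counts in 7 libraries and 0.365% in LerxC24 pool B. The labels were checked with transcripts abundant in 1 parent and scarce in the other. For 28 transcripts at 10 CPM (read counts scaled to library size) or more in every C24 pool and at least 20 times scarcer in Ler of batch 2, the F1 libraries held a median of 48.2 to 52.4% of the C24 level of their batch. For 20 transcripts with the reverse pattern the medians were 47.5 to 53.1% of the Ler level of batch 2. Ler of batch 1 was not used in this check. Each F1 library therefore held transcripts of both parents at about equal shares. Markers of other organs were low: the 18 root markers summed to 72.3 to 79.6 CPM in the F1 and 74.6 to 101 CPM in C24, and the 10 flower organ markers to 23.502 to 31.5 and 25.3 to 30.6 CPM. The first principal component of the most variable genes (44.2% of the variance) set every F1 library above the C24 pools. It also set batch 2 above batch 1 within C24 and within the F1. The second (29%) set batch 1 above batch 2, and also the F1 above the C24 pools of the same batch. Neither component held genotype or batch alone.

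Of 29438 genes tested, 849 rose in the F1 (2.88% of those tested) and 791 fell (2.69%), at a Benjamini-Hochberg adjusted p below 0.05 in edgeR's quasi-likelihood test. These shares are the background for the edgeR counts of the gene groups described here. DESeq2 called 1435 of the same 29438 genes higher and 1361 lower, the background for its own counts. C24xLer alone differed from C24 of its batch by 186 genes higher (0.632%) and 53 lower (0.18%), and LerxC24 by 205 higher (0.696%) and 116 lower (0.394%). The contrasts of the crosses share no library, but they come from the same fit. They share its estimate of the spread for each gene, so their calls are not independent. The genes called in both numbered 171, all in the same direction. That is 71.5% of the genes called in C24xLer and 53.3% of those called in LerxC24. Of the 239 genes called in C24xLer, 236 had the same sign in LerxC24, and of the 321 called in LerxC24, 318 had the same sign in C24xLer, against 70.8% of all tested genes. The count of 1640 was lower in every fit with a pool left out, by an amount that differed with the pool. It was 1155 without C24 pool A, 1007 without C24 pool B, 759 without C24 pool C and 633 without C24 pool D. For the F1 pools it was 1328 without C24xLer pool A, 933 without C24xLer pool B, 793 without LerxC24 pool A and 1007 without LerxC24 pool B. It fell to 507 when batch was left out of the model.

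**Figure D1:**
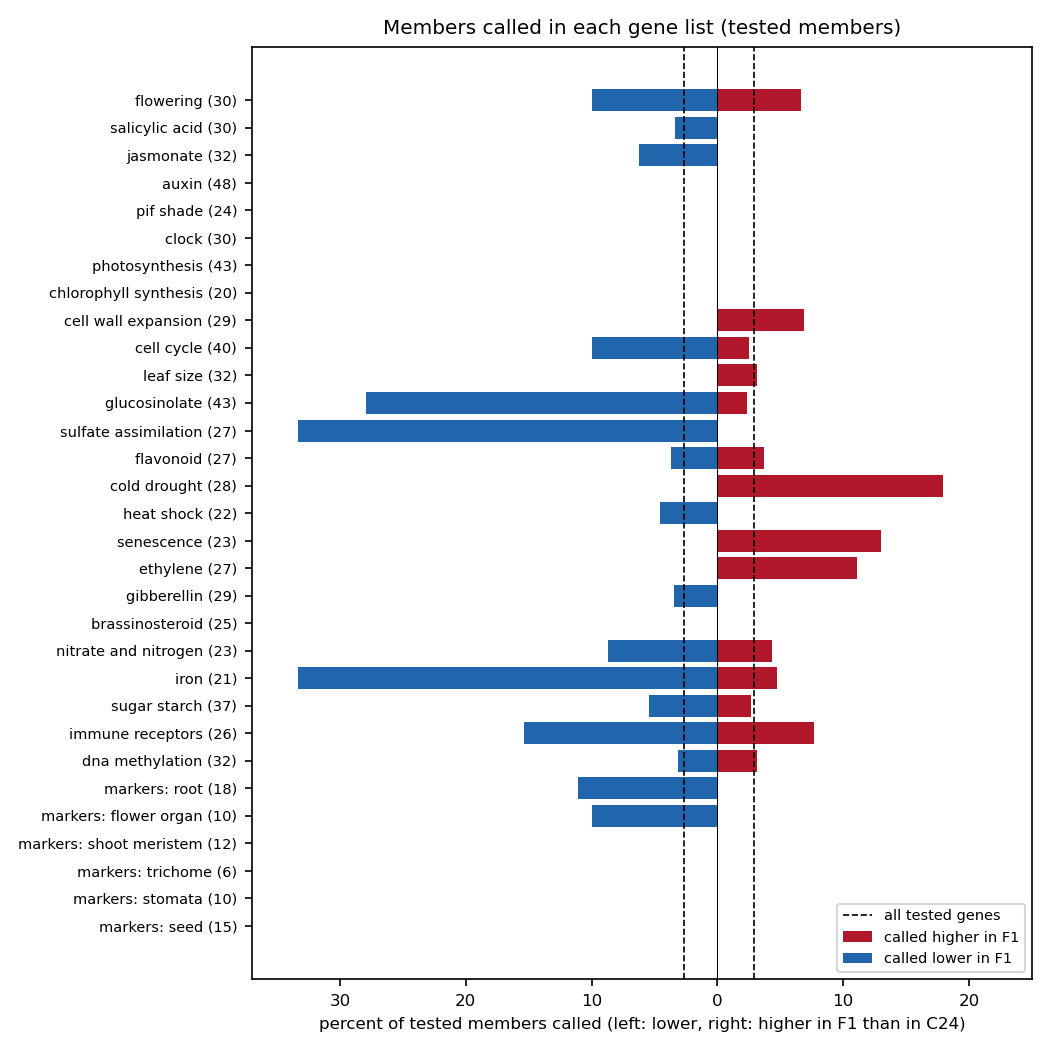
Bars give the percentage of tested members of each gene list that were called lower (left) or higher (right) in the F1 than in C24 at 15 days, with the number of tested members in brackets. Dashed lines mark the shares over all tested genes, 2.69 and 2.88%. Iron and sulfate assimilation each had 33.3% of members called lower and glucosinolate 27.9%.

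**Figure D2:**
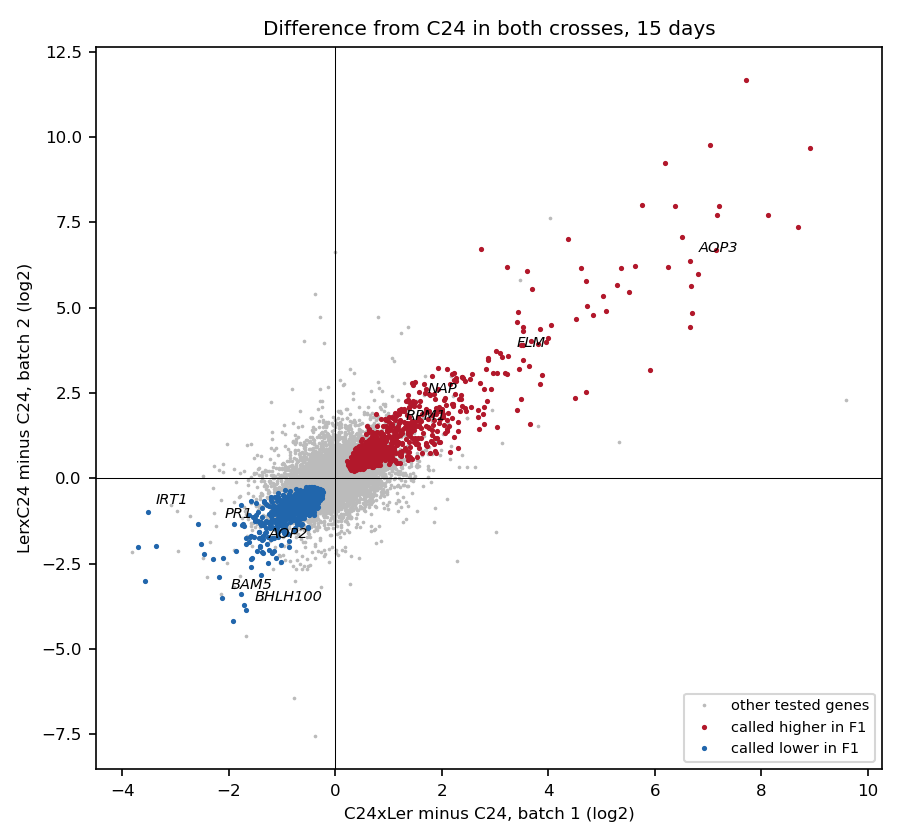
Each point is 1 of 29438 tested genes, placed by its log2 difference from C24 in C24xLer (x axis, batch 1) and in LerxC24 (y axis, batch 2). Coloured points are the 849 and 791 genes called higher or lower with both batches in the model, and the cloud of called genes runs from the lower left to the upper right.

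Several genes of the iron deficiency response fell in the F1. Of 21 tested iron genes 7 fell and 1 rose, 16 had a negative sign, and the median log2 fold change was -0.51 against 0.00045 over all tested genes. The genes that fell included BHLH38, BHLH39 and BHLH100, which encode transcription factors that activate iron uptake. They also included PYE, a regulator of iron homeostasis, BTS, an E3 ligase that restrains the response, FRO3, a ferric reductase, and IRT1, the root iron transporter. FER4, which encodes an iron storage protein (ferritin), moved the other way. In the reference accession, 3 of the 7 genes that fell hold the G-box letters CACGTG in the 250 bases before the annotated start. IRT1, FRO3, BHLH39 and PYE hold no match there, and the DNA of C24 and Ler was not read. The 3 reference windows are printed with each match in capitals (RefSeq annotation, TAIR10.1, both strands searched, CACGTG reads the same on both).
BHLH38, chr3:21085246-21085495, minus strand: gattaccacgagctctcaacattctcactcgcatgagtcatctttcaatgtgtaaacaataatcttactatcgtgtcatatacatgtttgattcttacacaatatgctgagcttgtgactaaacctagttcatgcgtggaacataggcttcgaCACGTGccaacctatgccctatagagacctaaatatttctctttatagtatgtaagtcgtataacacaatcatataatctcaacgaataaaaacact
BHLH100, chr2:17199455-17199704, minus strand: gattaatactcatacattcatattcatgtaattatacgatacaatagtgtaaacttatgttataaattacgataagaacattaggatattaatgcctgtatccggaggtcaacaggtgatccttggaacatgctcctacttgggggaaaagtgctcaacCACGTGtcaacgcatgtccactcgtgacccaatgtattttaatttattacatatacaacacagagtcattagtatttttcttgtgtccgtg
BTS, chr3:6273716-6273965, plus strand: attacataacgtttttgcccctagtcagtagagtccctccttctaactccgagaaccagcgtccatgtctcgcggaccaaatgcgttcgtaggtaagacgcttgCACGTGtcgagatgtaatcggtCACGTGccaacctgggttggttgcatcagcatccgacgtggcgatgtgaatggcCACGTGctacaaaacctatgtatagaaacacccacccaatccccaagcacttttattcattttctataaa
The G-box is a motif that many bHLH proteins bind. It was present in the windows of 6 of the 21 iron genes (28.6%), among them FER4, and in 6.27% of the windows of 29015 tested nuclear genes. A match is a description of these letters, not a binding site.

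FRO3 stood at 68.3 and 109 CPM in the C24 pools of batch 1 against 47.5 and 41.6 CPM in C24xLer, and 73.9 and 114 CPM in the C24 pools of batch 2 against 36.8 and 31.5 CPM in LerxC24. Both F1 pools lay below both C24 pools in each batch, and all 4 below all 4. The gene fell 2.34-fold (log2 fold change -1.23 ± 0.20 (SE), edgeR adjusted p = 0.0119), and the call held without any single pool. BHLH38 stood at 69.8 and 75.8 CPM in the C24 pools of batch 1 against 40.8 and 33.3 CPM in C24xLer, and 48.2 and 112 CPM in the C24 pools of batch 2 against 27.9 and 26.3 CPM in LerxC24. The F1 pools were alike and the C24 pools of batch 2 far apart, with no overlap between F1 and C24 (log2 fold change -1.27 ± 0.25 (SE), edgeR adjusted p = 0.0261).

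BHLH100 was at 11.6 and 31.6 CPM in the C24 pools of batch 1 against 5.39 and 8.14 CPM in C24xLer, and 16.9 and 52.4 CPM in the C24 pools of batch 2 against 2.79 and 1.98 CPM in LerxC24. Its F1 pools were all below the lowest C24 pool, and it fell 6.54-fold (log2 fold change -2.71 ± 0.60 (SE), edgeR adjusted p = 0.0392). Its neighbour in function BHLH39 was at 12.7 to 38.4 CPM in C24 and 4.33 to 9.42 CPM in the F1, again without overlap (log2 fold change -2.08 ± 0.42 (SE), edgeR adjusted p = 0.0268). BTS was at 149.8 to 315 CPM in C24 and 109.8 to 131 CPM in the F1 (log2 fold change -0.99 ± 0.21 (SE), edgeR adjusted p = 0.0344), and PYE at 13.9 to 25.9 CPM and 10.3 to 11.6 CPM (log2 fold change -0.93 ± 0.18 (SE), edgeR adjusted p = 0.0227). BHLH101, the remaining gene of the same subgroup, was not called, at a log2 fold change of 0.39 ± 0.17 (edgeR adjusted p = 0.229). FIT, the main activator of uptake in roots, was at -0.20 ± 0.21 (edgeR adjusted p = 0.634).

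FER4 stood at 19.4 and 14.6 CPM in the C24 pools of batch 1 against 35.5 and 32.5 CPM in C24xLer, and 22.1 and 23.4 CPM in the C24 pools of batch 2 against 37.1 and 38.4 CPM in LerxC24. All F1 pools lay above all C24 pools, and FER4 rose 1.82-fold (log2 fold change 0.87 ± 0.11 (SE), edgeR adjusted p = 0.00348), a call that held without any single pool. FER1 and FER3 did not pass the test. IRT1 was low in every library, at 5.78 and 10.2 CPM in the C24 pools of batch 1 against 0.534 and 0.849 CPM in C24xLer, and 0.418 and 0.997 CPM in the C24 pools of batch 2 against 0.385 and 0.306 CPM in LerxC24 (log2 fold change -2.64 ± 0.55 (SE), edgeR adjusted p = 0.0322). The 2 C24 pools of batch 1 were above the other 6 pools, and the call was lost without C24 pool A, B or D, either C24xLer pool or LerxC24 pool B. IRT1 and the root hair gene EXPA7 were the 2 of 18 root markers that fell (11.1%, against 2.69% of all tested genes). CASP1, a defining marker of the root endodermis, stayed between 0.297 and 0.873 CPM in all 8 libraries, and the part of root tissue in the iron result was not tested.

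The number of iron genes that fell depended on single pools. It was 2 without C24 pool B, 4 without C24 pool C, 3 without C24 pool D, 3 without either C24xLer pool, 2 without LerxC24 pool A and 1 without LerxC24 pool B, and 8 without C24 pool A. The median over the list stayed between -0.445 and -0.592 in these fits. The count was 10 with DESeq2 and 4 with no batch term. Ler held 97.2 and 57.1 CPM of FRO3 in batch 1 and 48.5 and 42.7 CPM in batch 2. For BHLH38 the Ler levels were 73.5 and 32.3 CPM in batch 1 and 33.9 and 35.5 CPM in batch 2, and for FER4 26.7 and 46.3 CPM and 38.4 and 35.7 CPM. Ler pool A thus lay within the C24 range for FRO3 and BHLH38. These Ler values, here and elsewhere, are given as levels only.

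Sulfate assimilation showed the same direction. Of 27 tested genes 9 fell and 0 rose with edgeR, 22 had a negative sign, and the median log2 fold change was -0.41. DESeq2 called 11 lower and 0 higher (1361 and 1435 of all 29438 genes). The genes that edgeR called lower belong to 3 steps. SULTR1;2 takes sulfate up and SULTR4;2 releases it from the vacuole. APS3, APR2 and APR3 activate and reduce it. SDI1, LSU1, LSU2 and LSU3 are genes that sulfur deficiency induces.

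APR2 (APS reductase 2) stood at 229.7 and 199 CPM in the C24 pools of batch 1 against 105 and 101 CPM in C24xLer, and 70.0 and 68.4 CPM in the C24 pools of batch 2 against 25.2 and 28.8 CPM in LerxC24. Levels differed between the batches in both genotypes, and within each batch both F1 pools were below both C24 pools. APR2 fell 2.31-fold (log2 fold change -1.21 ± 0.10 (SE), edgeR adjusted p = 0.000426), by -1.06 ± 0.13 in C24xLer and -1.36 ± 0.13 in LerxC24 on the log2 scale. The APR2 call held without any single pool and was lost only without the batch term (edgeR adjusted p = 0.519).

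APR3 was at 119 and 199 CPM in the C24 pools of batch 1 against 89.0 and 66.4 CPM in C24xLer, and 76.5 and 71.7 CPM in the C24 pools of batch 2 against 19.8 and 7.36 CPM in LerxC24. It fell 3.31-fold (log2 fold change -1.73 ± 0.39 (SE), edgeR adjusted p = 0.043), and the call was lost without C24 pool B, C or D, C24xLer pool B or LerxC24 pool A. SDI1, a repressor of glucosinolate synthesis under sulfur deficiency, was at 16.7 and 65.7 CPM in the C24 pools of batch 1 against 8.52 and 14.0 CPM in C24xLer, and 6.49 and 4.94 CPM in the C24 pools of batch 2 against 1.31 and 1.32 CPM in LerxC24. Its F1 pools lay below the C24 pools within each batch (log2 fold change -1.98 ± 0.40 (SE), edgeR adjusted p = 0.0274), and C24 pool B stood apart from pool A. The SDI1 call was lost without any single pool other than C24 pool A, and without the batch term. LSU1 was at 14.5 and 24.9 CPM in the C24 pools of batch 1 against 7.16 and 6.75 CPM in C24xLer, and 4.90 and 5.94 CPM in the C24 pools of batch 2 against 2.69 and 1.98 CPM in LerxC24 (log2 fold change -1.36 ± 0.19 (SE), edgeR adjusted p = 0.00613), and SULTR4;2 fell 2.153-fold from 22.6 to 38.6 CPM in C24 to 8.54 to 15.3 CPM in the F1 (log2 fold change -1.11 ± 0.15 (SE), edgeR adjusted p = 0.00576). Later steps were not called: SIR, sulfite reductase, was at -0.01 ± 0.08 and OASB, a cysteine synthase, at -0.03 ± 0.08 on the log2 scale.

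The count of 9 sulfur genes was 4 without C24 pool B, 3 without C24 pool C or D, 5 without C24xLer pool A, 4 without C24xLer pool B and 4 without either LerxC24 pool, 12 without C24 pool A, and 0 without the batch term. Among these genes LSU1 and LSU3 are neighbouring paralogs whose reads may be shared, and APR2 and BHLH38 overlap genes on the opposite strand. In the reference accession, the letters GAGAC of the sulfur-responsive element were in the 250-base windows of 3 of the 27 genes (11.1%). They were in those of 25.8% of all tested nuclear genes.

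**Figure D3:**
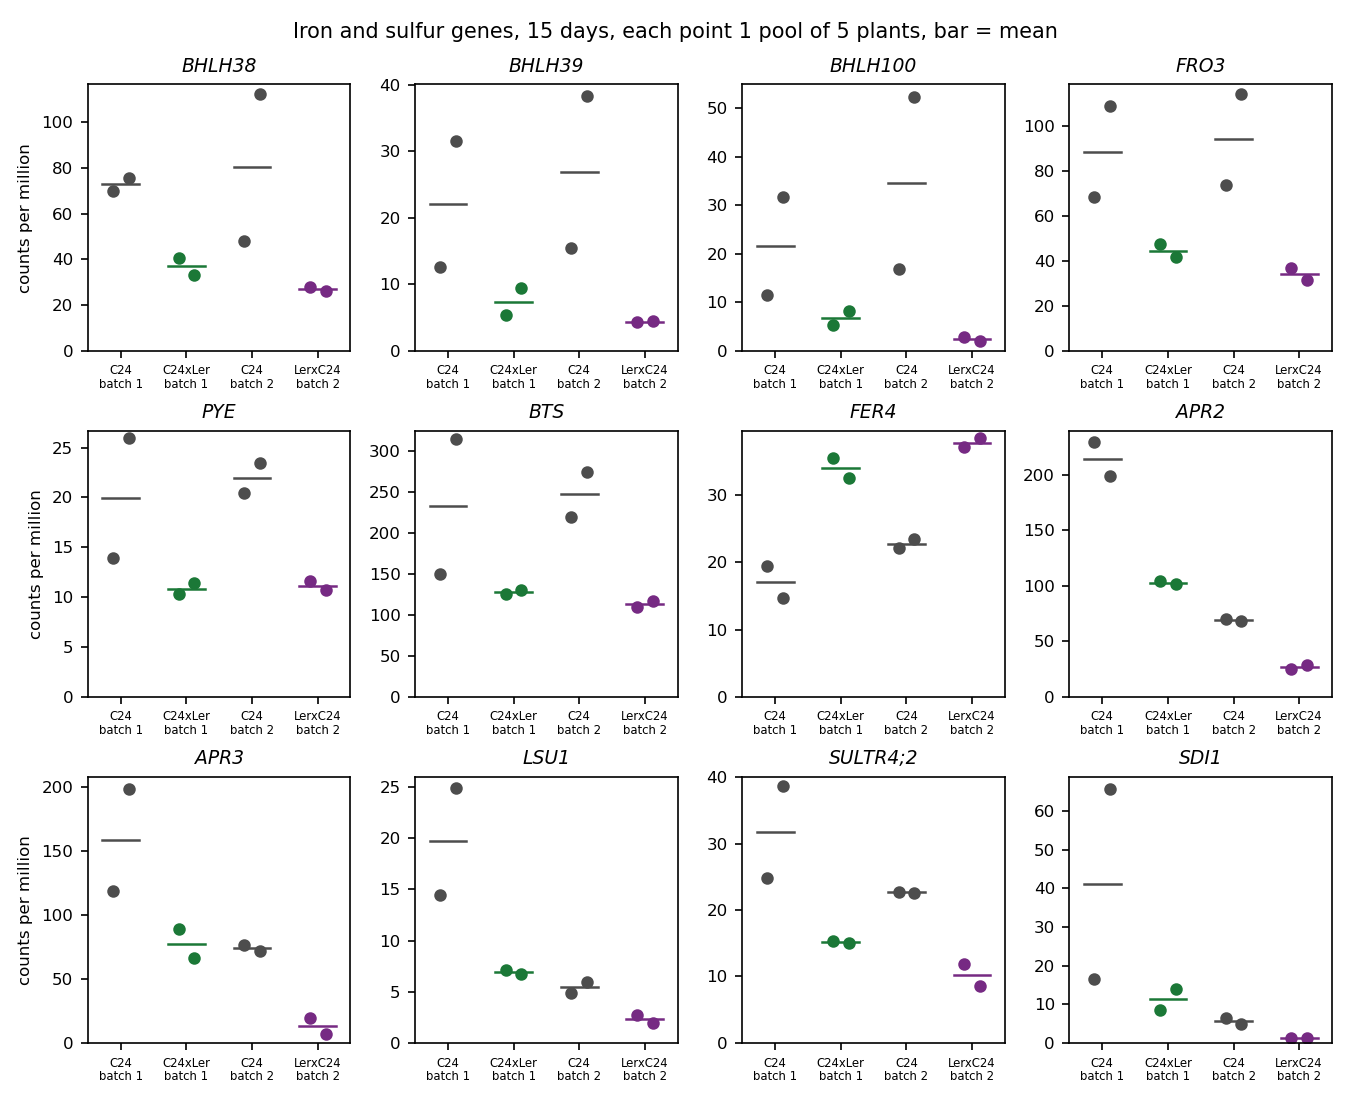
Each point is 1 pool of 5 plants and each bar the mean of 2 pools, in CPM (y axis, from 0), for C24 and the F1 of each batch. The 7 iron genes come first, with FER4 the 1 that rose, and then the 5 sulfur genes. F1 pools lie below the C24 pools of their batch in every panel other than FER4.

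Several genes of aliphatic glucosinolate synthesis fell too. Of 43 tested glucosinolate genes 12 fell and 1 rose, 36 had a negative sign, and the median log2 fold change was -0.40. MYB29, a transcription factor of the aliphatic pathway, stood at 29.6 and 30.7 CPM in the C24 pools of batch 1 against 15.9 and 16.0 CPM in C24xLer, and 26.9 and 33.2 CPM in the C24 pools of batch 2 against 13.3 and 14.0 CPM in LerxC24. Its 4 F1 pools were close to each other and well below the 4 C24 pools, and it fell 2.04-fold (log2 fold change -1.03 ± 0.09 (SE), edgeR adjusted p = 0.000686). The genes of methionine chain elongation that fell were BCAT3, MAM1, IPMI1, IPMI2 and IPMDH1, with BAT5, a plastid transporter gene of the pathway. MAM1 was at 374 to 424 CPM in C24 and 229 to 292 CPM in the F1 (log2 fold change -0.63 ± 0.10 (SE), edgeR adjusted p = 0.0118), without overlap. FMO-GS-OX2, which oxidises the side chain, was at 8.73 to 12.5 CPM and 4.77 to 7.05 CPM (log2 fold change -0.87 ± 0.10 (SE), edgeR adjusted p = 0.00188).

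MYB28, the partner of MYB29, was not called (log2 fold change -0.13 ± 0.13, edgeR adjusted p = 0.642). Of the indole branch, CYP83B1 was at -0.05 ± 0.21 and MYB51 at 0.53 ± 0.33 on the log2 scale, and neither was called. The 12 lower calls became 7 without C24 pool B, 6 without C24 pool C, 4 without C24 pool D, 7 without C24xLer pool B, 5 without LerxC24 pool A and 6 without LerxC24 pool B. MYB29, FMO-GS-OX2, AOP2, TGG2 and AOP3 kept their calls without any single pool.

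AOP2 and AOP3, neighbouring paralogs on chromosome 4 that set the side chain, showed opposite parental patterns. AOP3 (chr4:1343845-1346436, TAIR10.1) stood at 1.02 and 1.06 CPM in the C24 pools of batch 1 against 74.0 and 137 CPM in C24xLer, and 1.01 and 0.764 CPM in the C24 pools of batch 2 against 59.1 and 89.4 CPM in LerxC24. It was near 1 CPM in C24, rose 92.7-fold in the F1 (log2 fold change 6.54 ± 0.27 (SE), edgeR adjusted p = 1.1e-05), and was at 44.5 and 184 CPM in Ler of batch 1 and 239 and 259.7 CPM in Ler of batch 2. AOP2 (chr4:1351688-1354096, annotated as a transcribed pseudogene in the reference accession) stood at 441 and 341 CPM in the C24 pools of batch 1 against 185 and 109 CPM in C24xLer, and 278 and 395 CPM in the C24 pools of batch 2 against 78.9 and 90.3 CPM in LerxC24. AOP2 fell 3.25-fold (log2 fold change -1.70 ± 0.22 (SE), edgeR adjusted p = 0.00403) and was at 1.93 to 7.42 CPM in the 4 Ler pools. Reads of these paralogs may be split between them.

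TGG2 encodes a myrosinase, the enzyme that cleaves glucosinolates. It stood at 1732 and 2165 CPM in the C24 pools of batch 1 against 871 and 949 CPM in C24xLer, and 1980.3 and 2383 CPM in the C24 pools of batch 2 against 1026 and 1079 CPM in LerxC24. TGG2 fell 2.11-fold (log2 fold change -1.07 ± 0.12 (SE), edgeR adjusted p = 0.00183), while its paralog TGG1 was at 0.02 ± 0.14 on the log2 scale and was not called. Ler held 11.3 and 9.11 CPM of TGG2 in batch 2 but 1216 and 311 CPM in batch 1. The Ler pools of the batches thus stand apart for this gene, and also for AOP2, AOP3 and the immune receptor gene CSA1. For each of these, Ler of batch 1 was nearer to the C24 level, and the cause was not tested.

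The jasmonate list had 2 lower calls (6.25%, against 2.69% of all tested genes) and 0 higher among 32 genes (edgeR, with a median of 0.12). LOX2, the lipoxygenase at the start of jasmonate synthesis, stood at 958 and 1145 CPM in the C24 pools of batch 1 against 429 and 393 CPM in C24xLer, and 526 and 486 CPM in the C24 pools of batch 2 against 168 and 146 CPM in LerxC24. The F1 pools were below the C24 pools in both batches, and LOX2 fell 2.86-fold (log2 fold change -1.52 ± 0.12 (SE), edgeR adjusted p = 0.000337), by -1.35 ± 0.16 in C24xLer and -1.68 ± 0.16 in LerxC24. AOC1, which acts later in the same route, was at 48.9 to 79.4 CPM in C24 and 24.2 to 48.9 CPM in the F1 (log2 fold change -0.68 ± 0.14 (SE), edgeR adjusted p = 0.0264), a call that ended without C24 pool A, C or D or either C24xLer pool.

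The floral repressors FLM and MAF2 rose. FLM, a MADS-box repressor of flowering that responds to temperature (chr1:28955483-28960234), stood at 2.45 and 1.60 CPM in the C24 pools of batch 1 against 17.7 and 20.6 CPM in C24xLer, and 1.58 and 1.87 CPM in the C24 pools of batch 2 against 21.0 and 20.6 CPM in LerxC24. The 4 F1 pools were within a narrow band, and FLM rose 10.6-fold (log2 fold change 3.41 ± 0.16 (SE), edgeR adjusted p = 1.8e-05), by 3.24 ± 0.22 in C24xLer and 3.59 ± 0.23 in LerxC24. Ler held 4.33 to 8.34 CPM over both batches, so every F1 pool was above every pool of both parents. That position is a description of the levels and was not tested against Ler. MAF2, a repressor of the same family, was at 26.8 to 38.0 CPM in C24 and 42.6 to 52.2 CPM in the F1 and rose 1.49-fold (log2 fold change 0.58 ± 0.10 (SE), edgeR adjusted p = 0.0179), a call lost without C24 pool C, LerxC24 pool A or the batch term.

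FLC, the central repressor of the vernalization pathway, stood at 71.3 and 88.6 CPM in the C24 pools of batch 1 against 47.9 and 69.5 CPM in C24xLer, and 99.8 and 106 CPM in the C24 pools of batch 2 against 67.8 and 82.0 CPM in LerxC24. All F1 pools lay below the C24 pools of their batch, yet FLC missed the threshold (log2 fold change -0.45 ± 0.13 (SE), edgeR adjusted p = 0.101), and it passed with DESeq2 and with all 36 libraries in the fit. Ler held 0.731 to 1.31 CPM of FLC. An antisense gene overlaps FLC over 6067 bases in the reference, and reads of the pair cannot be told apart where strand was not used. FRI, the activator of FLC, was at 10.8 to 12.5 CPM in C24 and 8.49 to 9.81 CPM in the F1 (log2 fold change -0.35 ± 0.08 (SE), edgeR adjusted p = 0.0417), a call lost without any 1 of the 8 pools. SPL4 and AP1, which promote flowering and floral identity, fell as well: SPL4 from 2.82 to 9.87 CPM to 1.76 to 2.23 CPM (log2 fold change -1.31 ± 0.30 (SE), edgeR adjusted p = 0.0438) and AP1 from 0.702 to 1.38 CPM to 0.329 to 0.788 CPM (log2 fold change -0.77 ± 0.17 (SE), edgeR adjusted p = 0.0404). SOC1 and FT, the integrators of the flowering signal, were at 0.08 ± 0.39 and -0.26 ± 0.18 on the log2 scale and were not called. In all, 2 of 30 flowering genes rose (6.67%) and 3 fell (10%), with a median of -0.09. Over all tested genes the shares were 2.88 and 2.69%. The 3 lower calls fell to 0 or 1 without any single pool.

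Immune receptor genes changed in both directions, with 2 of 26 rising (7.69%) and 4 falling (15.4%), against 2.88 and 2.69% of all tested genes. DESeq2 called 6 higher and 4 lower (1435 and 1361 of all 29438 genes). The fit of all 36 libraries called 3 higher and 2 lower (1241 and 1116 of all 30207 genes). CSA1 and CHS3, adjacent receptor genes of the TIR-NBS-LRR class on chromosome 5, fell together. CSA1 stood at 92.0 and 94.0 CPM in the C24 pools of batch 1 against 47.3 and 51.6 CPM in C24xLer, and 96.3 and 89.6 CPM in the C24 pools of batch 2 against 49.1 and 50.4 CPM in LerxC24. The groups did not overlap and the pools within each genotype were close, and CSA1 fell 1.87-fold (log2 fold change -0.91 ± 0.07 (SE), edgeR adjusted p = 0.000337). CHS3 was at 67.4 to 79.1 CPM in C24 and 38.8 to 45.6 CPM in the F1 (log2 fold change -0.78 ± 0.07 (SE), edgeR adjusted p = 0.000707). The 4 Ler pools held 3.26 to 14.1 CPM of CSA1 and 2.92 to 27.1 CPM of CHS3, highest in batch 1.

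SNC1, a further receptor gene of this class, stood at 223 to 294 CPM in C24 and 144 to 217 CPM in the F1 (log2 fold change -0.60 ± 0.09 (SE), edgeR adjusted p = 0.00895). RPM1, a receptor that recognises Pseudomonas effectors, rose 2.49-fold, from 4.202 to 5.78 CPM to 11.6 to 12.6 CPM (log2 fold change 1.31 ± 0.10 (SE), edgeR adjusted p = 0.000352), with 11.5 to 15.5 CPM in the 4 Ler pools. CSA1, CHS3, SNC1 and RPM1 kept their calls without any single pool, and that of SNC1 was lost with all 36 libraries in the fit. RRS1, the other receptor gene that rose, lost its call without any 1 of the 8 pools.

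The defence marker PR1 varied too much to compare. It stood at 23.4 and 277 CPM in the C24 pools of batch 1 against 35.1 and 28.4 CPM in C24xLer, and 473 and 254 CPM in the C24 pools of batch 2 against 270.5 and 2.96 CPM in LerxC24. Both C24xLer pools and LerxC24 pool A were within the C24 range, and LerxC24 pool B was below it. PR1 was not called (log2 fold change -1.83 ± 1.099 (SE), edgeR adjusted p = 0.394). ICS1, which encodes an enzyme of salicylic acid synthesis, was at -0.46 ± 0.16 on the log2 scale (edgeR adjusted p = 0.148). In the salicylic acid list 1 gene of 30 fell, PBS3, and 0 rose (median -0.21; edgeR, and DESeq2 gave the same counts). That share of 3.33% is close to the 2.69% of all genes, and the PBS3 call was lost with all 36 libraries and without any single pool other than C24 pool A or C24xLer pool B.

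**Figure D4:**
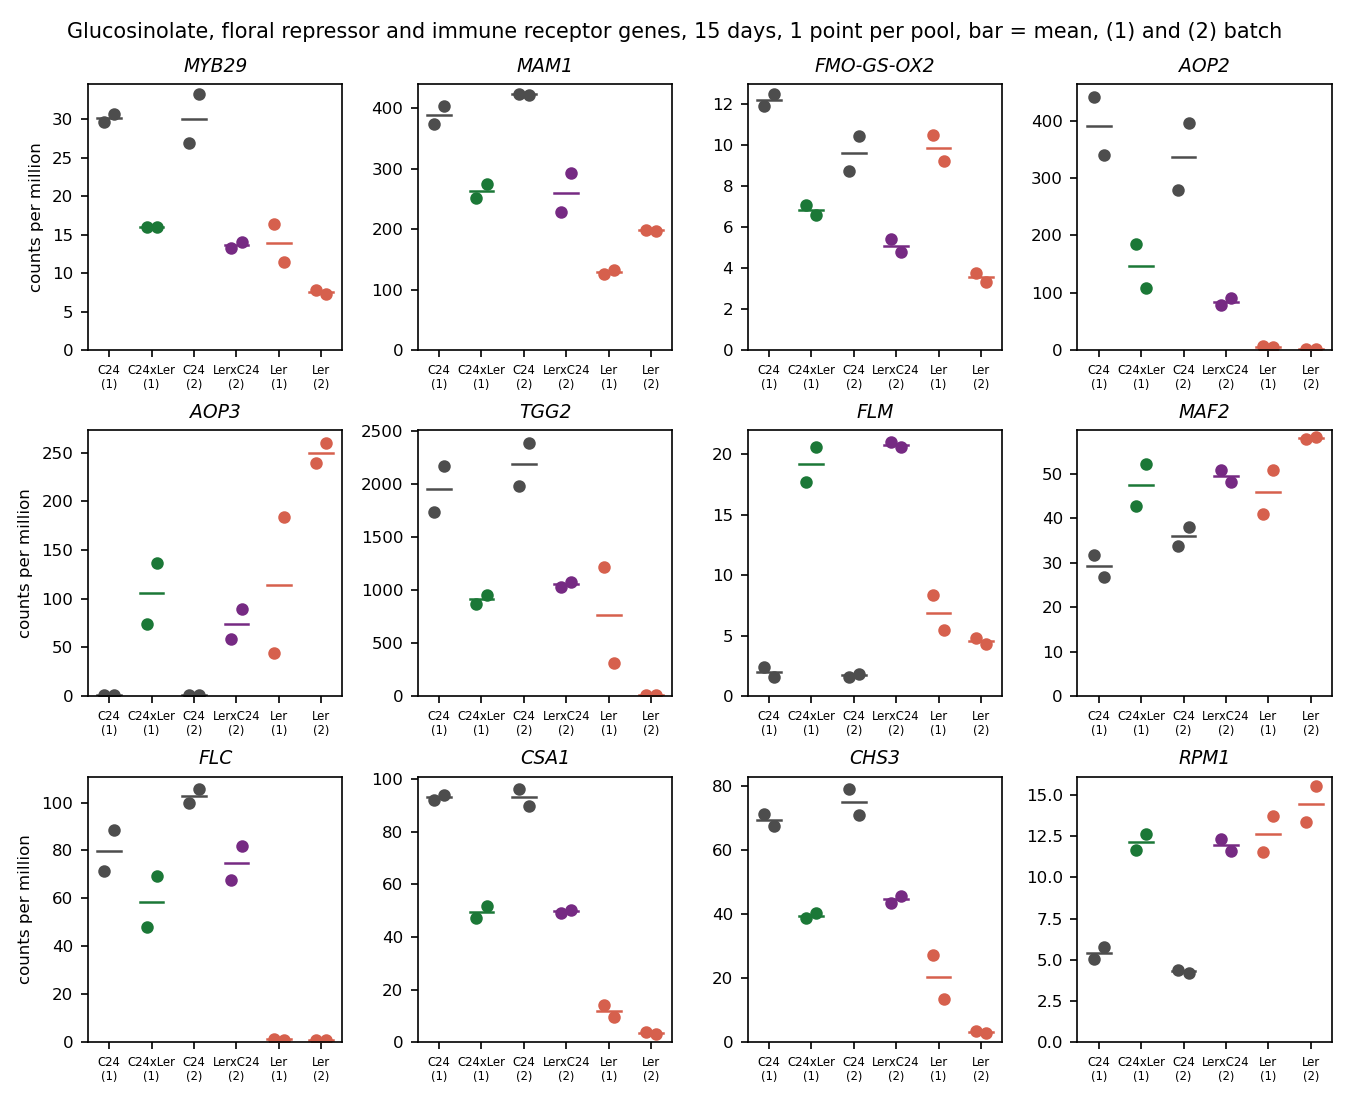
Points are single pools and bars the means of 2 pools, in CPM from 0 (y axis), for C24, the F1 and Ler, with the batch in brackets. AOP3, FLM, MAF2 and RPM1 were higher in the F1 than in C24, and FLM was higher in the F1 (17.7 to 21.0 CPM) than in either parent. CSA1, CHS3, AOP2, MYB29 and TGG2 were lower.

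In the senescence list edgeR called 3 of 23 genes higher (13%) and 0 lower, against 2.88 and 2.69% of all tested genes. DESeq2 called 5 higher and 2 lower (1435 and 1361 of all 29438 genes), and the median log2 fold change in edgeR was 0.12. SEN1, a dark- and senescence-induced gene, stood at 40.2 and 26.4 CPM in the C24 pools of batch 1 against 138 and 174 CPM in C24xLer, and 230.5 and 127 CPM in the C24 pools of batch 2 against 479 and 342 CPM in LerxC24. Levels were higher in batch 2 in both genotypes, and within each batch the F1 pools lay above the C24 pools (log2 fold change 1.71 ± 0.29 (SE), edgeR adjusted p = 0.0149). NAP, a NAC transcription factor that promotes leaf senescence, was at 5.02 and 3.23 CPM in the C24 pools of batch 1 against 8.103 and 16.6 CPM in C24xLer, and 15.6 and 9.06 CPM in the C24 pools of batch 2 against 56.5 and 61.0 CPM in LerxC24. NAP rose 3.80-fold (log2 fold change 1.92 ± 0.29 (SE), edgeR adjusted p = 0.00869), and its call held without any single pool, while that of SEN1 was lost without C24 pool D, where the list had 1 call. DIN10, a raffinose synthase gene induced in the dark, was at 121 to 443 CPM in C24 and 306 to 749.8 CPM in the F1 (log2 fold change 1.23 ± 0.27 (SE), edgeR adjusted p = 0.036), and its call was lost without C24 pool A, B or D, C24xLer pool B or either LerxC24 pool. With no batch term the list had 0 calls.

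In the list of sugar and starch genes 1 of 37 rose (2.70%) and 2 fell (5.41%), against 2.88 and 2.69% of all genes tested. STP1, a monosaccharide transporter that sugar represses, stood at 125 and 80.4 CPM in the C24 pools of batch 1 against 205 and 249 CPM in C24xLer, and 225 and 168 CPM in the C24 pools of batch 2 against 504 and 346 CPM in LerxC24. STP1 rose 2.19-fold (log2 fold change 1.13 ± 0.18 (SE), edgeR adjusted p = 0.0122), a call lost without C24 pool D. BAM5, a beta-amylase that sugar induces, stood at 73.4 and 58.4 CPM in the C24 pools of batch 1 against 21.2 and 9.03 CPM in C24xLer, and 41.9 and 60.8 CPM in the C24 pools of batch 2 against 4.94 and 4.12 CPM in LerxC24. All F1 pools were below all C24 pools and BAM5 fell 6.91-fold (log2 fold change -2.79 ± 0.37 (SE), edgeR adjusted p = 0.00468), although Ler held 91.3 to 502 CPM. With all 36 libraries in 1 fit the BAM5 call was lost (edgeR adjusted p = 0.0994). Chosen after the values were seen, the dormancy-associated genes DYL1 and AT2G33830 and AKINBETA1, a subunit of the SnRK1 energy sensor kinase, rose by 0.99 ± 0.19, 1.47 ± 0.29 and 0.85 ± 0.14 on the log2 scale. Leaving out C24 pool D ended each of these calls, C24 pool B those of DYL1 and AT2G33830, and LerxC24 pool A those of AT2G33830 and AKINBETA1. AT2G33830 also lost its call without C24 pool A or C24xLer pool B.

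The cold and drought list had 6 higher and 0 lower calls with DESeq2 (1435 and 1361 of all 29438 genes). With edgeR 5 of its 28 genes rose (17.9%, against 2.88% of all tested genes) and 0 fell, with 23 positive signs and a median of 0.24. They were COR47, KIN1 and KIN2, which encode protective proteins, NCED3, an enzyme of abscisic acid synthesis, and ABI1, a phosphatase that restrains abscisic acid signals. COR47 stood at 110.2 and 83.5 CPM in the C24 pools of batch 1 against 284 and 171 CPM in C24xLer, and 269 and 275 CPM in the C24 pools of batch 2 against 567 and 360.5 CPM in LerxC24. COR47 rose within each batch (log2 fold change 1.00 ± 0.21 (SE), edgeR adjusted p = 0.034), while C24 of batch 2 overlapped C24xLer of batch 1. KIN1 and KIN2 are near-identical neighbours whose reads may be shared, and KIN1 was at 4.19 to 11.2 CPM in C24 and 6.23 to 29.8 CPM in the F1 (log2 fold change 1.26 ± 0.25 (SE), edgeR adjusted p = 0.0276). The 5 calls became 0 without C24 pool C or D and 1 without C24 pool A or B, C24xLer pool A or either LerxC24 pool, and 4 without C24xLer pool B. They became 0 with all 36 libraries in the fit and 0 with no batch term.

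The ethylene list had 3 of 27 genes higher (11.1%, against 2.88% of all tested genes) and 0 lower with edgeR. With DESeq2 it had 7 higher and 0 lower (1435 and 1361 of all 29438 genes). In edgeR 24 had a positive sign, and the median was 0.34. ERS2, an ethylene receptor, stood at 10.5 to 17.2 CPM in C24 and 17.9 to 24.7 CPM in the F1 (log2 fold change 0.56 ± 0.09 (SE), edgeR adjusted p = 0.0136). ERF5, an ethylene response factor, was at 2.80 and 2.79 CPM in the C24 pools of batch 1 against 4.37 and 10.4 CPM in C24xLer, and 5.47 and 2.86 CPM in the C24 pools of batch 2 against 13.6 and 11.97 CPM in LerxC24 (log2 fold change 1.51 ± 0.29 (SE), edgeR adjusted p = 0.0224). ACS6, which makes the ethylene precursor, was at 8.36 to 16.4 CPM and 21.3 to 49.8 CPM (log2 fold change 1.32 ± 0.31 (SE), edgeR adjusted p = 0.0475). The 3 calls became 1 without C24 pool D, C24xLer pool B or LerxC24 pool B, and 0 without LerxC24 pool A or without the batch term. ETP1, which targets the ethylene signal protein EIN2 for degradation, was among the 10 largest rises at 10 CPM or more in both genotypes, at 7.59 and 6.26 CPM in the C24 pools of batch 1 against 20.6 and 24.4 CPM in C24xLer, and 12.9 and 13.3 CPM in the C24 pools of batch 2 against 36.2 and 40.0 CPM in LerxC24. It rose 3.07-fold (log2 fold change 1.62 ± 0.10 (SE), edgeR adjusted p = 8.36e-05) and kept its call without any single pool.

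**Figure D5:**
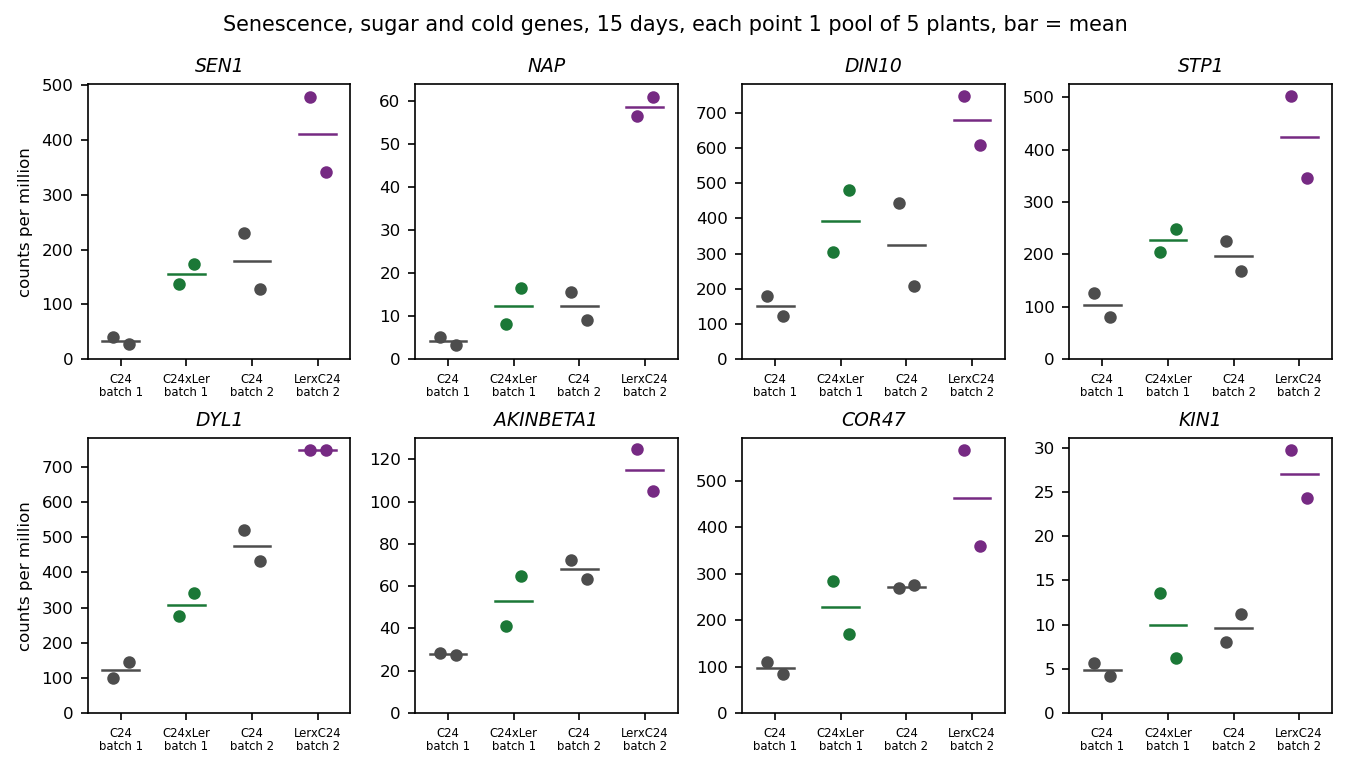
Points are single pools of 5 plants and bars the means of 2 pools, in CPM from 0 (y axis), for C24 and the F1 of each batch. Both C24 and the F1 had more SEN1, DIN10, STP1, DYL1, AKINBETA1 and COR47 in batch 2, and the F1 pools lie above the C24 pools of their batch for each of these.

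In the cell cycle list 4 of 40 genes fell (10%) and 1 rose (2.5%), with 30 negative signs and a median of -0.19. Over all tested genes 2.69% fell and 2.88% rose. CYCD3;3, a D-type cyclin that drives entry into the cycle, stood at 18.6 and 17.7 CPM in the C24 pools of batch 1 against 9.97 and 8.90 CPM in C24xLer, and 12.1 and 9.89 CPM in the C24 pools of batch 2 against 7.39 and 6.59 CPM in LerxC24. It fell 1.74-fold (log2 fold change -0.80 ± 0.11 (SE), edgeR adjusted p = 0.00521), with the C24 pools of batch 2 at the level of C24xLer in batch 1. CYCB1;1 and CDKB1;2 fell by 0.65 ± 0.13 and 0.56 ± 0.11 on the log2 scale, and CYCB2;3, a mitotic cyclin, rose by 0.50 ± 0.11. The 4 lower calls became 1 or 2 without any single pool, and the rise of CYCB2;3 was kept without C24 pool C or LerxC24 pool B and lost without any other. With no batch term the list had 0 calls.

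Expansins loosen the cell wall. EXPA16 rose 1.97-fold, from 10.5 to 13.9 CPM in C24 to 19.3 to 26.9 CPM in the F1 (log2 fold change 0.98 ± 0.14 (SE), edgeR adjusted p = 0.00593), and EXPA1 rose by 0.50 ± 0.11 on the log2 scale (edgeR adjusted p = 0.0314, lost without any pool other than C24xLer pool A). They were the 2 calls among 29 cell wall genes (6.9%, against 2.88% of all tested genes). DESeq2 called 6 higher and 2 lower of 23 nitrate and nitrogen genes, against 1435 higher and 1361 lower of all 29438 genes. With edgeR 1 rose (4.35%) and 2 fell (8.7%), against 2.88 and 2.69% of all tested genes, with a median of 0.18. The falls were NRT1.5, a nitrate transporter gene, by 0.70 ± 0.12 on the log2 scale, and GLN1;3, a glutamine synthetase gene, which fell by 0.53 ± 0.10. The NRT1.5 call was lost without C24 pool D, with all 36 libraries and with no batch term. That of GLN1;3 was lost without C24 pool B or D, C24xLer pool B or LerxC24 pool B, and with no batch term. NIA1, nitrate reductase, rose 1.72-fold, from 182 to 259.7 CPM to 324 to 451 CPM (log2 fold change 0.78 ± 0.10 (SE), edgeR adjusted p = 0.00477). GA2OX1, which inactivates gibberellin, fell 1.82-fold, from 3.55 to 4.80 CPM to 2.01 to 2.51 CPM (log2 fold change -0.86 ± 0.12 (SE), edgeR adjusted p = 0.00718). It was the 1 call among 29 gibberellin genes (3.45%, against 2.69% of all tested genes).

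Of the auxin (48 genes), PIF and shade (24), clock (30), photosynthesis (43), chlorophyll synthesis (20) and brassinosteroid (25) genes, 0 were called by edgeR in either direction in the fit of the 8 libraries. At an unadjusted p below 0.05 there were 5, 2, 4, 1, 1 and 3 genes in these lists, against 6079 of all 29438 tested genes. DESeq2 called 3, 1, 2, 0, 0 and 1, each of them higher, against 1435 of all tested genes. With all 36 libraries in the fit edgeR called 2, 1, 1, 0, 0 and 2, each of them higher, against 1241 of all 30207 genes. Their median log2 fold changes were 0.19, 0.09, 0.03, -0.03, -0.09 and 0.20. PIF4, a growth-promoting factor, was at 108 and 29.8 CPM in the C24 pools of batch 1 against 109.8 and 33.3 CPM in C24xLer, and 167 and 119 CPM in the C24 pools of batch 2 against 174 and 129 CPM in LerxC24. Pools A and B of batch 1 differed more than C24 and F1 did (log2 fold change 0.07 ± 0.44 (SE), edgeR adjusted p = 0.954). CCA1, LHY and TOC1 of the clock were at -0.02 ± 0.18, -0.17 ± 0.13 and 0.28 ± 0.26 on the log2 scale. The remaining lists had 0 to 2 calls in each direction. Among them were UGT78D1 (higher) and CHI (lower) of 27 flavonoid genes, and NRPD1B (higher) and SUVH9 (lower) of 32 DNA methylation genes. MBF1C (lower) was called among 22 heat shock genes and SWP (higher) among 32 leaf size genes. Each of these calls was 3.12 to 4.55% of its list, against 2.88% higher and 2.69% lower over all tested genes. Of the marker lists, root had 11.1% and flower organ (AP1) 10% of members called lower, and the others had 0 calls.

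The largest changes belonged to transcripts with few counts in C24. Counts refer to the TAIR10 reference, and how far C24 alleles match it at these loci was not tested. AT3G30700, a pseudogene, had 2 counts over the 4 C24 pools and 623 over the 4 F1 pools, a ratio of 302 with a 95% counting interval of 83.2 to 2500. AT2G14460 had 5 and 1750 counts, a ratio of 339 (145 to 1050). AT2G24760 was at 0.123 to 0.337 CPM in C24 and 19.0 to 23.64 CPM in the F1 (log2 fold change 6.73 ± 0.27 (SE), edgeR adjusted p = 1.05e-05), and it is a pseudogene that overlaps AT2G24755. AT3G44070 was at 0.0637 to 0.256 CPM and 12.7 to 23.57 CPM (log2 fold change 6.57 ± 0.36 (SE), edgeR adjusted p = 4.11e-05). The smallest adjusted p belonged to AT1G23960, at 0.775 to 1.08 CPM in C24 and 26.3 to 30.1 CPM in the F1 (log2 fold change 4.99 ± 0.12 (SE), edgeR adjusted p = 1.36e-06). The 4 Ler pools held 44.4 to 55.0 CPM of it.

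Among genes at 10 CPM or more in both genotypes, the largest rises were AT3G62530, an ARM repeat protein gene, SZF1, a salt-inducible zinc finger gene, and AT5G37130. AT3G62530 stood at 12.03 to 18.22 CPM in C24 and 73.5 to 93.2 CPM in the F1 (log2 fold change 2.41 ± 0.13 (SE), edgeR adjusted p = 3.95e-05). AT5G37130 was at 38.5 to 46.5 CPM and 159.7 to 207 CPM (log2 fold change 2.17 ± 0.11 (SE), edgeR adjusted p = 2.42e-05). CcdA, which takes part in cytochrome assembly in chloroplasts, rose 3.65-fold (log2 fold change 1.87 ± 0.09 (SE), edgeR adjusted p = 1.8e-05), and ABCC2, a vacuolar transporter gene, rose 3.42-fold (log2 fold change 1.78 ± 0.16 (SE), edgeR adjusted p = 0.000636). All of these other than SZF1 kept their calls without any single pool, and the SZF1 call was lost without C24 pool B, C or D, C24xLer pool B or LerxC24 pool A.

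The largest falls at that level included AT2G14247, AT2G30766, AT2G30760 and AT5G05250, with ORG1, CGLD27 and JAL23. AT5G05250 stood at 54.5 and 91.6 CPM in the C24 pools of batch 1 against 29.1 and 27.0 CPM in C24xLer, and 85.8 and 103 CPM in the C24 pools of batch 2 against 19.8 and 22.2 CPM in LerxC24. The groups did not overlap and it fell 3.41-fold (log2 fold change -1.77 ± 0.21 (SE), edgeR adjusted p = 0.00282). ORG1 was at 185 to 434 CPM in C24 and 81.5 to 116 CPM in the F1 (log2 fold change -1.67 ± 0.25 (SE), edgeR adjusted p = 0.00836), and JAL23, a jacalin-related lectin gene, was at 20.5 to 51.8 CPM and 6.41 to 22.2 CPM (log2 fold change -1.59 ± 0.16 (SE), edgeR adjusted p = 0.00148). AT2G14247 was at 36.3 to 106 CPM and 2.56 to 22.3 CPM (log2 fold change -3.01 ± 0.62 (SE), edgeR adjusted p = 0.0289), and leaving out C24 pool B, C24 pool C, C24xLer pool A or either LerxC24 pool ended that call. AT2G30760 and AT2G30766 overlap over 639 bases on opposite strands, and reads from that stretch cannot be told apart where strand was not used.

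Whether the crosses differed in their distance from C24 was tested as an interaction. It called 0 of 29438 genes (0%) with edgeR, with 603 at an unadjusted p below 0.05, and DESeq2 called 3. The smallest edgeR adjusted p was 1. A miss of the threshold with 2 pools a group does not show that the crosses acted alike.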

How the data were processed

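The authors deposited a table of raw counts per gene for 33321 gene rows at 15 days. Per the submitters' processing notes FastQC and the TAIR10 build were used. Not given in the sources used here were the mapper, the counter and whether strand was used. Per the labels' protocols, C24 and F1 pools share batches as stated. The deposited normalised tables hold a score, the counts times 1 factor per library, and served only to check column names. A table combining both ages and the tables of the other age were not used here.

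Counts were analysed with edgeR 4.0.16 (R 4.3.3, limma 3.58.1): filterByExpr by group, trimmed mean of M values (TMM), quasi-likelihood F tests (two-sided), Benjamini-Hochberg over 29438 genes, threshold 0.05. The model held batch and F1 or C24 (biological coefficient of variation 0.173), and cross contrasts came from 4 group means. Standard errors are the log2 fold change over the square root of F. CPM use TMM over these and 4 Ler libraries. Alternatives were DESeq2 1.42.0, its size factors, no filter, nuclear genes only, all 36 libraries, no batch term, a replicate block and each pool left out. On simulated data for the F1 against C24 (29254 genes), 67% of 2-fold and 97% of 4-fold changes were recovered, with 8 false calls. The simulated counts held no batch effect, no difference between the crosses and no deviation shared between pools. These rates therefore need not hold for the real data. Gene names, biotypes and coordinates came from RefSeq (TAIR10.1), where 32565 gene rows were found. Counting intervals (exact, 95%) cover counting error only.

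The 31 gene lists and the members were chosen with earlier results of these data known. Named genes were those called with all F1 pools on one side of C24 within each batch: the 5 largest rises and falls at 1 CPM or more, the 10 largest at 10 CPM in both genotypes, up to 4 per list by adjusted p, and 16 fixed genes. A further 23, among them SDI1, LSU2, APS3, SULTR1;2, BHLH39, BTS, MAM1, BAT5, IPMI1, BCAT3, SPL4 and AT1G23960, were chosen after the values were seen, as were other list members given with values. The values of 1 gene of the immune receptor list are not reported here.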

Additional observations from a re-analysis of the deposited data

Results flagged for a closer look

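Within each group of 4 pools, the highest or lowest pool was set against the other 3, and a pool was listed where its gap to the nearest other, as a share of the range, passed the 95% limit of Dixon's test. Of 236 groups checked 14 were listed, and chance lists about 1 in 20. Each group spans both batches. Among C24 pools, pool B stood high for LSU3 (10.9 CPM), SPX1 (73.4 CPM) and SULTR4;2 (38.6 CPM), and for ZIF1 at 95.2 CPM. C24 pool A stood high for CCA1 (123 CPM) and MAF5 (3.97 CPM), and C24 pool C for ERF5 (5.47 CPM). AT2G14460 was at 0.0581 CPM in C24 pool B and at 0 in the other C24 pools. Among F1 pools, C24xLer pool A stood high for CCA1 (130.0 CPM) and low for AT1G58602 (62.6 CPM) and FLM (17.7 CPM). LerxC24 pool A stood high for PR1 (270.0 CPM) and ACS6 (49.8 CPM). LerxC24 pool B had an organelle share of 0.365% of counts.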

How the results depend on the processing

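Of the alternatives, DESeq2 size factors, no filter on low counts, nuclear genes only and all 36 libraries in the fit left the main count of 1640 within 1.5 times. It was 2796 with DESeq2, 507 with no batch term, 2809 with the replicate block, and between 633 and 1328 with 1 pool left out. For C24xLer alone the 239 calls became 727 with DESeq2, 568 with all 36 libraries and 476 with the replicate block, and 91 to 169 with 1 pool left out. For LerxC24 alone the 321 calls became 992 with DESeq2 and 898 with all 36 libraries, and 62 to 276 with 1 pool left out. The difference between the crosses had 0 calls, and 3 with DESeq2. The cause of these shifts was not tested, other than that fewer pools leave fewer degrees of freedom. Pools of batch 1 with the same letter deviated together (r = 0.527 across genes between A minus B in C24 and in C24xLer), but only 2 letters are shared and nothing in the labels says that a letter marks a shared day or tray. With the replicate block FLC passed the threshold, and 6 auxin, 1 PIF and shade, 2 clock, 2 photosynthesis and 1 brassinosteroid gene were called higher. Among 115 named genes 0 called values changed sign under any alternative. Of the 115, 67 lost their call with no batch term, 19 with all 36 libraries, and 19 to 47 with 1 pool left out. Depth limits transcripts with few counts, such as AT3G30700 with 2 counts over the C24 pools.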

Other observations

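ZIF1 and SPX1 lie outside the lists and were chosen after their values were seen. ZIF1, a vacuolar transporter gene of zinc tolerance, stood at 79.5 and 95.2 CPM in the C24 pools of batch 1 against 53.9 and 50.9 CPM in C24xLer, and 81.8 and 81.0 CPM in the C24 pools of batch 2 against 48.5 and 40.5 CPM in LerxC24. It fell 1.75-fold without overlap of the groups (log2 fold change -0.80 ± 0.09 (SE), edgeR adjusted p = 0.00247) and kept its call without any single pool. SPX1, a phosphate starvation response gene, was at 36.2 to 73.4 CPM in C24 and 9.97 to 26.1 CPM in the F1 (log2 fold change -1.26 ± 0.25 (SE), edgeR adjusted p = 0.0268), a call lost without C24 pool B, C or D or either C24xLer pool, and with no batch term.

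In batch 1 pools A and B differed in the same direction in C24, C24xLer and Ler for growth genes that follow time of day. PIF4 was at 108 and 29.8 CPM in C24, 109.8 and 33.3 CPM in C24xLer and 86.3 and 23.9 CPM in Ler. IAA29, an auxin response gene, was at 21.3 and 3.18, 35.2 and 4.86, and 22.5 and 3.58 CPM in the same order. The labels give no harvest time for single pools.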
